A study of Mus musculus with 8 samples.

Results

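The S100 calcium-binding protein family was examined in sorted mouse CD8+ T-cell fractions. Its members here were the 10 S100 genes S100a1, S100a3, S100a4, S100a5, S100a6, S100a8, S100a9, S100a10, S100a11 and S100a13, found by their exact gene name among the 47493 genes of the table. They were read as T-cell members (S100a4, S100a6, S100a10, S100a11 and S100a13, 5 genes), neutrophil members (S100a8 and S100a9, 2 genes) and other members (S100a1, S100a3 and S100a5, 3 genes).

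The study addressed which cells among endogenous CD8+ T (en-T) cells change when CD4+ cells are depleted after adoptive cell therapy. RNA-seq was done on 8 libraries from 4 mice, with 4 libraries enriched for IL-18Rα hi cells and 4 of the cells left after that enrichment (flow-through). All mice were C57BL/6 females of 6 to 8 weeks and had the same treatment. They carried an intradermal B16F10 melanoma (200000 cells on day 0), a mouse tumor line. Cyclophosphamide, which depletes lymphocytes, was given at 300 mg/kg on day 3. On day 5 the mice received 2000000 Thy1.1 Pmel-1 cells, whose transgenic T-cell receptor recognizes a melanoma antigen, with 10000 IU of human IL-2 a day for 3 days. The CD4-depleting antibody GK1.5 was injected at 200 µg on days 10, 17 and 24. On day 25, inguinal lymph nodes and spleen were taken, and Thy1.1-negative CD8+ cells were isolated with beads from each mouse. These were then split on a magnetic column with a PE-labelled antibody against IL-18Rα. Only the column fraction separated the groups, so both carried the tumor, the transfer and the CD4 depletion, and no mouse without anti-CD4 was in the comparison. Fractions of the same number were taken to come from the same mouse.

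S100 proteins are small proteins that bind calcium through EF hands, a helix-loop-helix fold, and mostly act as dimers. On binding calcium they open a surface that grips target proteins, among them annexins, myosin and other parts of the membrane cytoskeleton, while S100A10 is locked in its active form without calcium. S100A8 and S100A9 form calprotectin, an abundant protein of neutrophils and monocytes that withholds metals from microbes and, once released, acts on receptors such as TLR4 and RAGE.

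All 10 genes lie on mouse chromosome 3 (mm10, with coordinates from GENCODE M21). S100a1 (90511034 to 90514392, minus strand) and S100a13 (90514435 to 90524581, plus strand) point away from each other, with annotated starts 43 bases apart. They are followed by S100a3 (90560578 to 90602702, plus), S100a4 (90603771 to 90606045, plus), S100a5 (90608523 to 90611780, plus), S100a6 (90612882 to 90624181, plus), S100a8 (90668978 to 90670035, plus) and S100a9 (90692632 to 90695721, minus). S100a1 to S100a9 thus span 185 kb. S100a11 (93520488 to 93526287, plus) and S100a10 (93555080 to 93564643, plus) form a second pair 2.82 Mb further on, with 28.8 kb between them.

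Start-site windows of 5 members are shown: S100a4, with the largest change, S100a11 and S100a13 among the other T-cell members, and both neutrophil members. The windows are from RefSeq (GRCm38.p6, the same assembly as mm10), run from 250 bases before the start site to 50 bases after it and are written on the strand of the gene. They are chr3:90603520-90603819 (plus) for S100a4, chr3:93520246-93520545 (plus) for S100a11, chr3:90514185-90514484 (plus) for S100a13, chr3:90668821-90669120 (plus) for S100a8 and chr3:90695672-90695971 (minus) for S100a9. Capitals mark matches to 1 of 6 searched motifs on either strand. The windows of S100a1, S100a5 and S100a6, which are not shown, held no match.
S100a4: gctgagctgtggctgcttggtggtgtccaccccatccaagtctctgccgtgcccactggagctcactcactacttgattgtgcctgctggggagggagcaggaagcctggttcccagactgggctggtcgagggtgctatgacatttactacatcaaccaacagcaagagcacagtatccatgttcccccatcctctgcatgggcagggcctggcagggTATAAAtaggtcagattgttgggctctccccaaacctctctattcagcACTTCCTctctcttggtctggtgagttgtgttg
S100a11: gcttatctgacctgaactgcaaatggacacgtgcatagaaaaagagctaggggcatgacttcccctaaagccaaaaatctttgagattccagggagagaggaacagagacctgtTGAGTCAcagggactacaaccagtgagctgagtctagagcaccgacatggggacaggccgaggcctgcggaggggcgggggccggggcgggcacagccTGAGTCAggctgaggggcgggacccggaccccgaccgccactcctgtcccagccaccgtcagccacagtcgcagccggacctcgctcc
S100a13: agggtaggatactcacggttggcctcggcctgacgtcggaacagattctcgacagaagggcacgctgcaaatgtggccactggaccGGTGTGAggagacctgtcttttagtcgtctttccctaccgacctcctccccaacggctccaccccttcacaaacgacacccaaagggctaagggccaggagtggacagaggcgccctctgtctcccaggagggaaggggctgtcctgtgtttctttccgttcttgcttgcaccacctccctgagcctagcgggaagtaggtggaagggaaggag
S100a8: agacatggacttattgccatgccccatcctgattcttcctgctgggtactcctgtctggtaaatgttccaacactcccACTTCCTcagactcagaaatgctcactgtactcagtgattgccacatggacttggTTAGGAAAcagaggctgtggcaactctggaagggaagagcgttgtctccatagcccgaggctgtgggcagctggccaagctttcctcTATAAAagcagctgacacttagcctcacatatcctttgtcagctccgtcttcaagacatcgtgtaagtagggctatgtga
S100a9: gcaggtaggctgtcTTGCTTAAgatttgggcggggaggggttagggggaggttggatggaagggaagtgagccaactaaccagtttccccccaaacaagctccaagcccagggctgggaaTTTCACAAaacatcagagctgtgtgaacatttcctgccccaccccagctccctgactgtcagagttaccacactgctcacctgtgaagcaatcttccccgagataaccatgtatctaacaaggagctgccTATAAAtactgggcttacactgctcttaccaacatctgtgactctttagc
RefSeq windows were matched for 9 of the 10 members, 12 windows in all, and none was matched for S100a10. The searched motifs were the TATA box, written TATAAA, and letters bound by 5 factor families that T cells or myeloid cells use. The AP-1 family, which activated T cells induce, was searched as TGANTCA. The C/EBP family, which drives granulocyte and monocyte genes, was searched as TTNCNNAA. ETS factors, with PU.1 of myeloid cells among them, were searched as AGGAAGT. T-box factors such as T-bet and Eomes were searched as GGTGTGA, and KLF factors, which keep naive T cells circulating, as GGGTGTG. The last pair share letters and can overlap.

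Positions below are those of the first base of a match, counted from the start site as 1 with no position 0. TATAAA, found in 13.6% of all 32851 windows of this length, lay at −31 in S100a4, at −30 in S100a8, at 1 in S100a9 and at −52 in 1 of 4 S100a3 windows. AGGAAGT (9.35% of windows) occurred on the reverse strand in S100a4 at 18 and in S100a8 at −172. The C/EBP letters, common in 40.7% of windows, were found in S100a8 at −117, in S100a9 at −236 and −130, and in 2 S100a3 windows. S100a11 held TGANTCA at −136 and −38 (7.81% of windows), S100a13 held GGTGTGA at −164 (3.98%), and GGGTGTG (7.95%) was in none of the 12. The S100a11, S100a13 and S100a1 windows held 15, 14 and 11 CG dinucleotides against a median of 7 over all windows. The S100a13 and S100a1 windows overlap, so their counts are not separate. S100a4, S100a9 and S100a8 held 2, 2 and 4, S100a5 and S100a6 held 3 and 6, and the S100a3 windows held 0 to 5. TATAAA lay upstream of the start in S100a4, S100a8 and 1 S100a3 window, but on the annotated start itself in S100a9. The C/EBP letters were in 4 of the 12 member windows, beside 40.7% of all windows. These 4 were the windows of both neutrophil members and 2 of S100a3, and none was of a T-cell member. The matches describe letters only.

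Levels are in FPKM (fragment values scaled to transcript length and library depth), and a change is the log2 fold change of FPKM + 1, enriched minus flow-through, which understates changes of low genes. Genes whose 8 libraries averaged 1 FPKM or more were tested. Of these 12166 genes, 1720 (14.1%) were higher and 1664 (13.7%) lower in the enriched libraries by limma at an adjusted p under 0.05. With the mouse added to the fit as a block (mouse block), 2705 of them were higher and 2763 lower. The targeted receptor gene Il18r1 rose from 30.6 ± 6.96 to 111 ± 3.87 FPKM (SD, n = 4; change 1.85 ± 0.15 SE, limma adjusted p = 0.000291) without overlap. Cd8a was at 289 ± 76.2 and 374 ± 12.3 FPKM (change 0.41, limma adjusted p = 0.14). Of 8 CD8 T-cell identity genes 1 rose (2 with a mouse block) and none fell (median change 0.40), but flow-through replicate 1 held only 0.572 of the mean level of these genes on the geometric scale, against 0.904 to 1.20 in the other libraries. It also had the highest sum of 12 erythroid genes, 3862 FPKM against 301 to 2072 elsewhere. With each library divided by its level of these 8 T-cell genes (T-cell scaling), the median change of all genes moved from −0.02 to −0.37, and 26.4% of calls were higher in place of 50.8%. All 15 effector and memory T-cell genes rose (median 1.41), and 7 of 12 naive T-cell genes fell (median −0.73; 9 with a mouse block). With 1 library left out 4 of them fell, or 10 where that library was flow-through replicate 1.

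Within the family, 6 of the 9 members tested rose, with none lower, and S100a5 was below the filter. The members that rose were S100a4, S100a6, S100a10, S100a11, S100a13 and S100a3. The median change of the 9 was 1.19, that of the 5 T-cell members 1.32 and that of all genes −0.02. The same 6 had every enriched library above every flow-through library, as had 16.4% of all genes. S100a3 passed the filter only through the enriched libraries, so its mean had to be higher there. Without it 5 of 8 were called, all T-cell members, and the 3 not called were S100a1, S100a8 and S100a9.

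**Figure D1:**
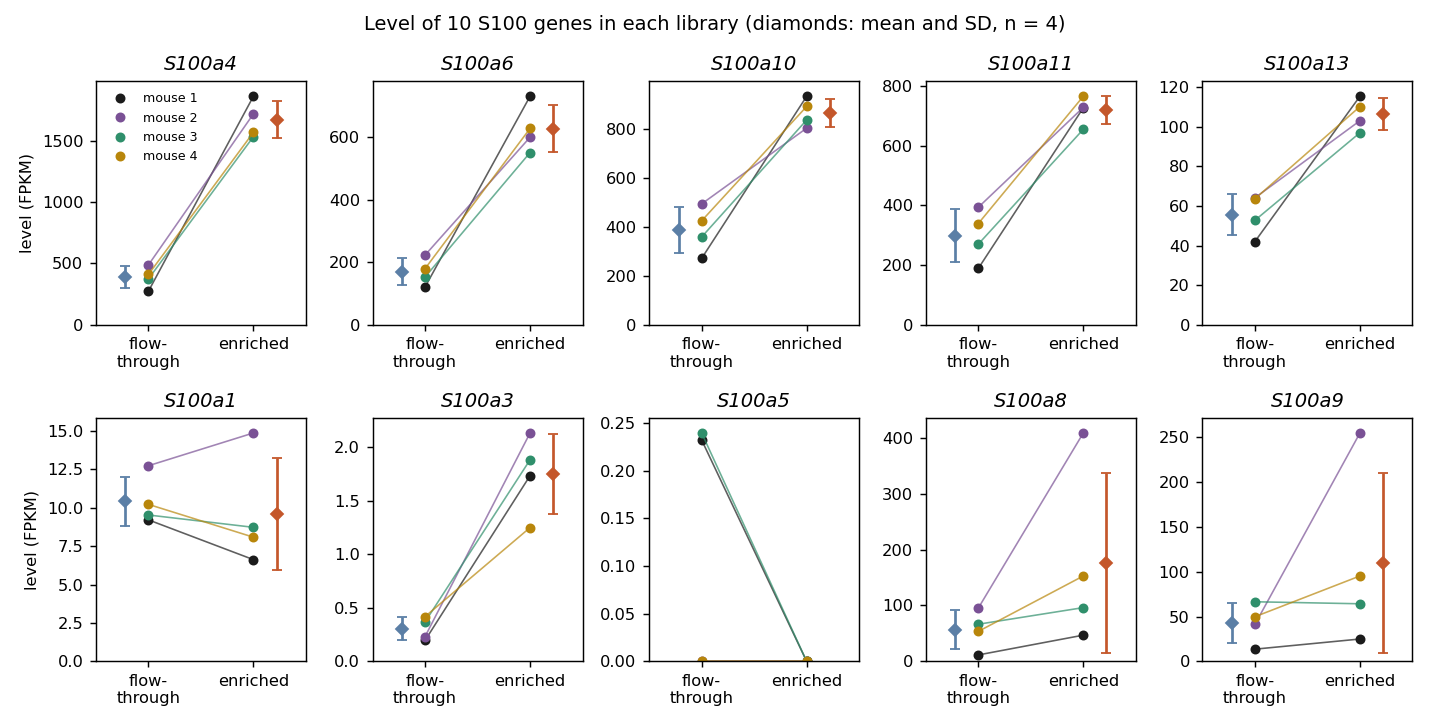
Level of each S100 gene in FPKM (vertical axes, each with its own scale from 0) in the flow-through and enriched library of each mouse, joined by a line; diamonds give the mean and SD of 4 libraries, and none is drawn for S100a5. The 5 T-cell members in the upper row do not overlap between fractions, S100a8 and S100a9 spread widely among mice, and S100a1 stays between 6.62 and 14.9 FPKM.

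S100a4, a partner of non-muscle myosin IIA that is known from motile cells and memory T cells, had the largest change of the family. Its level was 273, 488, 374 and 410.0 FPKM in flow-through replicates 1 to 4 and 1865, 1722, 1535 and 1571 FPKM in the enriched ones. No flow-through library came near the enriched range, and flow-through replicate 1 was the lowest of all 8. The means were 386 ± 89.0 and 1673 ± 151 FPKM (SD, n = 4), a change of 2.14 ± 0.17 (SE, limma adjusted p = 0.000287). Only 8 of the 12166 genes had a larger change, and 29 had a lower p. By level, S100a4 ranked 183rd to 282nd among all genes in the flow-through libraries and 46th to 66th in the enriched ones.

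S100a6 (calcyclin), which binds annexin A11 and the calcyclin-binding protein, starts 6.84 kb downstream of S100a4, with S100a5 between them. It was measured at 121, 222, 152 and 179 FPKM in the flow-through libraries and at 730.5, 599, 550.4 and 628 FPKM in the enriched ones. The lowest enriched library was well above the highest flow-through library. The means of 169 ± 43.1 and 627 ± 76.0 FPKM gave a change of 1.92 ± 0.18 (limma adjusted p = 0.000544).

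S100a10 (p11) pairs with annexin A2 in a membrane-bound complex. Its flow-through levels were 271, 494, 359 and 425 FPKM, and its enriched levels 934, 804, 837 and 892 FPKM. The fractions did not overlap, and mouse 1 had both the lowest flow-through and the highest enriched level. The means were 387 ± 94.9 and 867 ± 57.8 FPKM, a change of 1.19 ± 0.17 (limma adjusted p = 0.00242). In the flow-through fraction S100a10 was thus as abundant as S100a4, with a ratio of S100a4 to S100a10 of 1.00 ± 0.0329, whereas in the enriched fraction this ratio was 1.93 ± 0.171 (SD, n = 4).

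S100a11 (calgizzarin), a partner of annexin A1, was at 188, 393, 269.7 and 339 FPKM in the flow-through libraries. In the enriched libraries it was at 726, 728, 654 and 765 FPKM. Again no flow-through library reached the enriched range. The change was 1.32 ± 0.20 (means 297 ± 88.5 and 718 ± 46.3 FPKM, limma adjusted p = 0.00349).

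S100a13, which takes part in the release of FGF1 and interleukin-1α without a signal peptide, was the least abundant T-cell member. It was at 42.0, 64.1, 52.7 and 63.6 FPKM in the flow-through libraries and at 115, 103, 97.0 and 110.2 FPKM in the enriched ones. This was a change of 0.94 ± 0.14 without overlap (means 55.6 ± 10.5 and 106 ± 8.07 FPKM, limma adjusted p = 0.00271). Under T-cell scaling the change was 0.56 (limma adjusted p = 0.0355), and with T-cell scaling together with a mouse block the adjusted p was 0.0697, so this call depends on the scaling. The other 4 T-cell members were called under both, with changes of 1.75 (S100a4), 1.53 (S100a6), 0.93 (S100a11) and 0.80 (S100a10).

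All 5 T-cell members were lowest in flow-through replicate 1, the library with the least T-cell and the most erythroid RNA. In mouse 1 their sum was 4.88 times as high in the enriched library, against 2.38 to 3.04 times in the other mice. In bulk samples, fewer cells of a type and less RNA per cell cannot be told apart. Without flow-through replicate 1 the change of S100a4 was 1.98 and that of S100a13 was 0.82, and all 5 remained called without any single library.

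**Figure D2:**
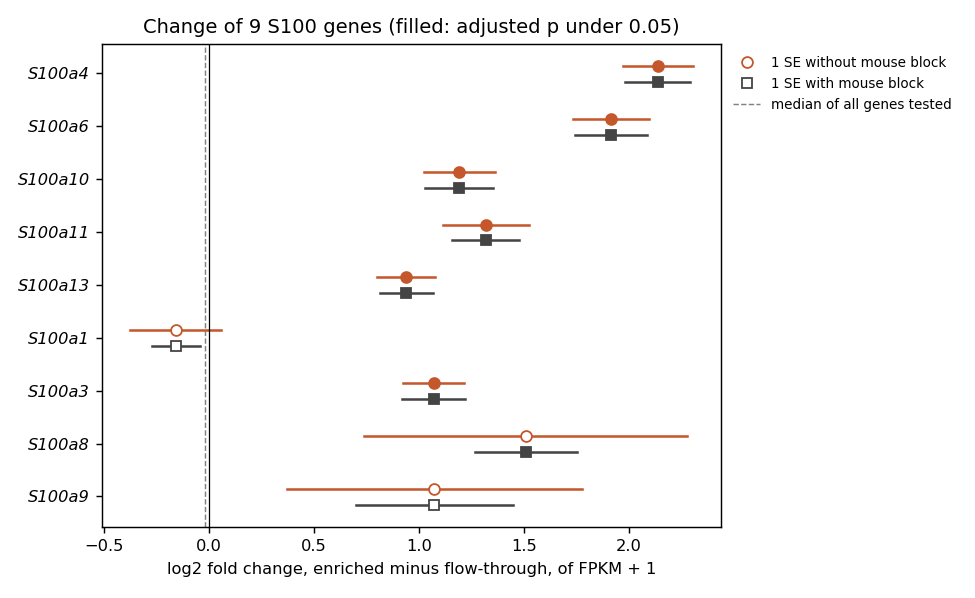
Log2 fold change of FPKM + 1, enriched minus flow-through (horizontal axis), of the 9 S100 genes tested, with 1 SE as bars; circles are without and squares with a block for the mouse, filled where the limma adjusted p was under 0.05, and the dashed line is the median of all genes. S100a4 and S100a6 lie furthest to the right, S100a1 lies at −0.16, and only for S100a8 do the circle and the square differ in filling.

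The T-cell members did not change by the same amount. The log2 ratio of FPKM + 1 of each of the 10 pairs of T-cell members was compared between fractions by an exact two-sided permutation test over all 70 arrangements of the 8 libraries. In 9 of 10 pairs the 4 enriched ratios lay apart from the 4 flow-through ratios, with p = 0.0286, the smallest that the exact test can give (adjusted over the 10 pairs, p = 0.0317). S100a4 rose more than S100a13 by 1.20 ± 0.08, more than S100a10 by 0.95 ± 0.07, more than S100a11 by 0.82 ± 0.09 and more than S100a6 by 0.22 ± 0.06 (log2, SE), each in 4 of 4 mice. With 1 library left out, the difference between S100a4 and S100a6 lost its call in 5 of 8 runs, and the other differences of S100a4 in none. For S100a10 against S100a11 the difference of −0.13 ± 0.07 did not pass (exact p = 0.171), although S100a11 rose more in 4 of 4 mice. Within mice, an exact sign-flip test cannot go below 0.125 with 4 pairs, so none of the 10 could pass there.

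As a whole, the 10 members summed to 1405 ± 369 FPKM per flow-through library and to 4289 ± 340.5 FPKM per enriched library, or 0.204% ± 0.0471 and 0.633% ± 0.0425 of all FPKM (SD, n = 4). S100a4 made up 27.7% ± 1.18 of the family in flow-through libraries and 39.0% ± 2.31 in enriched ones. The share of S100a10 was 27.7% ± 1.10 and 20.3% ± 2.01, that of S100a11 21.0% ± 1.07 and 16.8% ± 1.03, and that of S100a6 12.1% ± 0.724 and 14.6% ± 1.44. In the enriched fraction the order was therefore S100a4, S100a10, S100a11 and S100a6 by mean, where S100a11 and S100a6 overlapped (654 to 765 and 550.4 to 730.5 FPKM). S100a4 and S100a10 overlapped in the flow-through fraction but not in the enriched one.

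Genes of other cell types were present and moved with the fractions, and their part in the S100 values was not tested. Some list genes averaged less than 1 FPKM in the flow-through and entered the test only through the enriched libraries. Their mean had to be higher there, as for S100a3, though not by a set amount. They are left out of the second count, given for each list that held such genes. Of 10 dendritic-cell genes 8 rose, or 7 of 9 without such a gene (median of the 10, 1.49, sums of 233 to 562 FPKM in the flow-through and 661 to 1667 FPKM in the enriched libraries). NK-cell genes rose in 9 of 10 cases, or in 5 of 6 without 4 such genes (median of the 10, 1.37, sums of at most 48.6 FPKM in the flow-through and at most 221 FPKM in the enriched libraries). Of 11 CD4 and gamma-delta T-cell genes 7 rose (10 with a mouse block), or 5 of 8 without 3 such genes (median of the 11, 1.23, sums of 76.0 to 109 and 123 to 253 FPKM). B-cell genes rose in 2 of 8 cases, 4 with a mouse block (median 0.21, sums of 1775 to 7951 and 3560 to 10807 FPKM, mostly of the immunoglobulin gene Ighm). Erythroid genes fell in 3 of 12 cases, 8 with a mouse block (median −0.68, sums of 1148 to 3862 and 301 to 1938 FPKM), and 4 of 6 melanoma genes were listed at 0 in every library with none tested.

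The intracellular partners of the T-cell members were measured beside them. Of 13 partner genes tested 8 rose and 1 fell, with a median change of 0.53 against −0.02 for all genes, and with a mouse block 9 rose and 1 fell. Under T-cell scaling 3 rose and none fell. Anxa2, the partner of S100a10, rose from 125 ± 27.3 to 367 ± 18.7 FPKM (change 1.58 ± 0.15, limma adjusted p = 0.000623). Ahnak, a giant scaffold protein held at the membrane by the S100A10 and annexin A2 complex, rose from 10.1 ± 2.88 to 38.1 ± 4.66 FPKM (change 1.85 ± 0.19, limma adjusted p = 0.000762). Both changes were larger than that of S100a10 by value, and the ratio of S100a10 to Anxa2 was 3.09 ± 0.119 for flow-through and 2.36 ± 0.160 for enriched libraries (SD, n = 4).

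Myh9, the heavy chain of non-muscle myosin IIA bound by S100A4, rose from 152 ± 22.5 to 219 ± 18.3 FPKM (change 0.53 ± 0.12, limma adjusted p = 0.0139). Anxa11, an S100A6 partner, rose from 41.1 ± 4.80 to 59.6 ± 2.92 FPKM (change 0.53 ± 0.10, limma adjusted p = 0.00577). Under T-cell scaling neither Myh9 (0.14) nor Anxa11 (0.15) was called. Another S100A6 partner went the opposite way: Cacybp, which links to a ubiquitin ligase, fell from 77.6 ± 18.8 to 49.5 ± 5.88 FPKM (change −0.61 ± 0.17, limma adjusted p = 0.0309), lower in 4 of 4 mice. Leaving out any 1 of 5 libraries (flow-through replicates 1 and 3, enriched replicates 2, 3 and 4) ended this call, with changes of −0.50 to −0.66 and adjusted p of 0.055 to 0.0859 by limma. Anxa1, the S100A11 partner, was at 27.1 ± 14.3 and 55.5 ± 18.7 FPKM (change 1.09 ± 0.37, limma adjusted p = 0.0592), and with a mouse block its adjusted p by limma was 0.000805. Fgf1, Syt1 and Il1a, named with S100a13 in its release complex, were at or below 0.223 FPKM in every library and were not tested.

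Of 10 receptor genes for released S100 proteins 3 rose and none fell (median 0.41), and with a mouse block 5 rose and 2 fell. Tlr4 entered the test only through the enriched libraries, and without it 3 of 9 rose, or 5 with the block. Ager (RAGE) was at 1.57 ± 0.507 and 1.46 ± 0.415 FPKM (limma adjusted p = 0.844), and Tlr4 at 0.866 ± 0.578 and 1.20 ± 0.499 FPKM (limma adjusted p = 0.461). Bsg (basigin) was at 208 ± 48.4 and 167 ± 24.6 FPKM and Emb (embigin) at 106 ± 39.9 and 149 ± 12.6 FPKM, with limma adjusted p of 0.217 and 0.121. With the mouse block these were called in opposite directions, Bsg lower (change −0.30, adjusted p = 0.0134) and Emb higher (change 0.57, adjusted p = 0.0284).

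S100a8 and S100a9, the calprotectin subunits, spread widely between mice. S100a8 was at 11.6, 95.3, 66.4 and 53.6 FPKM in the flow-through and at 46.9, 408, 96.2 and 153 FPKM in the enriched libraries. The fractions overlapped, mouse 1 was lowest and mouse 2 highest in each, and the enriched library was the higher in 4 of 4 mice, by 1.45 to 4.29 times. The change was 1.51 ± 0.77 (95% interval −0.24 to 3.26, limma adjusted p = 0.172). With the mouse as a block, which removes the spread between mice, the SE was 0.24 and S100a8 was called (limma adjusted p = 0.0035). In that fit 22.2% of all genes were called higher, and 7 members were. Without both libraries of any 1 mouse the blocked change was between 1.32 and 1.84, and it remained called (limma adjusted p of 0.00112 to 0.0196), in fits chosen after the data had been seen.

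S100a9 was at 13.6, 41.2, 66.4 and 49.8 FPKM in the flow-through and at 24.9, 254.5, 64.2 and 95.2 FPKM in the enriched libraries. It was higher in the enriched library in 3 of 4 mice, 6.17 times in mouse 2, and 0.966 times as high in mouse 3. The change of 1.07 ± 0.70 (95% interval −0.53 to 2.68) was called neither without the block (limma adjusted p = 0.279) nor with it (limma adjusted p = 0.0546). Without both libraries of mouse 3 the blocked change of S100a9 was 1.45 and called (limma adjusted p = 0.0248), and without mouse 2 it was 0.57 and not called (limma adjusted p = 0.0645).

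The neutrophil label was set beside a list of 21 neutrophil genes. Ly6g, the marker of mature mouse neutrophils, was at or below 0.447 FPKM in every library, and Cxcr2 at or below 0.655 FPKM. Between 87.8% and 96.3% of the list's FPKM came from Mpo, Elane, Prtn3 and Ctsg, granule enzymes that neutrophil precursors make. Of 18 list genes tested 2 rose and none fell (median 0.24), with 4 higher without flow-through replicate 2 or enriched replicate 1 and 1 higher without flow-through replicate 4 or enriched replicate 2 or 4. With the mouse block 8 rose and 1 fell, of which 1 that rose, Mmp8, entered the test only through the enriched libraries. Padi4 entered in the same way, and Retnlg only through the flow-through. Of the other 15 genes 2 rose and none fell, and with the block 7 rose and 1 fell. Under the label neutrophil, S100a8 and S100a9 were therefore measured in libraries with precursor-type granule genes and hardly any Ly6g.

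The sum of the neutrophil list was nearly equal in the 2 fractions of each mouse. It was 594, 3395, 1044 and 1551 FPKM in the flow-through and 617, 3494, 1045 and 1548 FPKM in the enriched libraries, a ratio of 0.998 to 1.04 within mice. S100a8 and S100a9 together were 1.21 to 4.86 times as high in the enriched library, so their ratio to the list was 0.0402 to 0.127 in the flow-through and 0.117 to 0.190 in the enriched libraries, higher in 4 of 4 mice. The list sum thus differed between mice but hardly within them, whereas S100a8 differed in both ways. Mpo, Elane, Prtn3 and Ctsg held 87.8% to 96.3% of this sum, so it describes mainly these genes and not the rest of the list. Taken gene by gene, 10 of the 21 were higher in the enriched library of every mouse, 2 were lower and 9 mixed.

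Of the most abundant list genes, Mpo (680 ± 507 and 567 ± 428 FPKM), Prtn3 (399 ± 315 and 399.8 ± 315 FPKM) and Elane (340.4 ± 271 and 398 ± 307 FPKM) had limma adjusted p of 0.777, 1.00 and 0.802. Within mice Mpo was 0.798 to 0.878, Prtn3 0.940 to 1.09 and Elane 1.14 to 1.26 times as high in the enriched library. With the block Mpo was lower (limma adjusted p = 0.0139) and Elane higher (limma adjusted p = 0.0171), both by small amounts (changes of −0.27 and 0.25), and under T-cell scaling the change of Elane was −0.14, not called. Within mice, 10 of the 21 list genes were higher in the enriched library of every mouse, 2 (Mpo and Ly6g, the latter near 0 throughout) were lower in it and 9 were mixed. Genes singled out after their values were seen were Fcnb, Chil3 and Itgam, encoding ficolin B, a chitinase-like protein and the integrin CD11b, which were 2.80 to 4.30, 1.80 to 4.38 and 2.47 to 3.83 times as high within mice. Other list genes were divided. Ltf was 0.412 to 1.08, Ngp 0.378 to 2.49 and Retnlg 0.226 to 1.38 times as high, and none of these was called with or without the block. Camp (0.584 to 6.43) and Lcn2 (0.525 to 1.57) were also mixed. Mmp8 (2.04 to 3.05), Wfdc21 (1.67 to 2.28), Mmp9 (1.14 to 1.62) and Padi4 (1.19 to 1.39) were among those higher in every mouse.

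**Figure D3:**
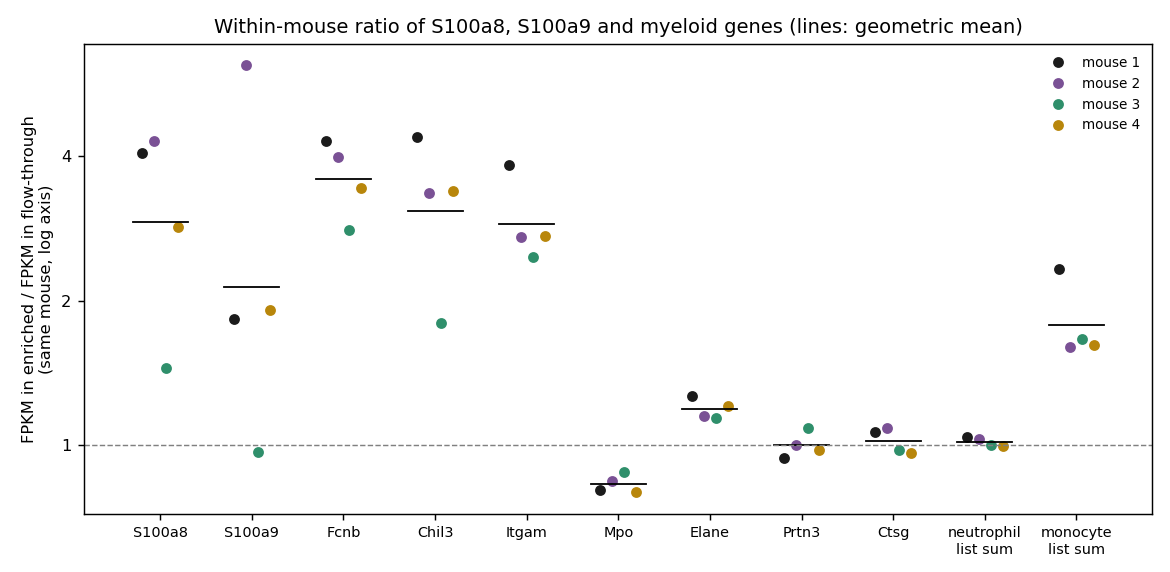
Ratio of FPKM in the enriched to FPKM in the flow-through library of the same mouse (vertical axis, log scale) for S100a8, S100a9, 7 of the 21 genes of the neutrophil list, some chosen after their values were seen, and the sums of the neutrophil and monocyte lists; points are the 4 mice, lines geometric means and the dashed line equal levels. Mpo, Elane, Prtn3, Ctsg and the neutrophil sum stay close to 1, whereas S100a8, Fcnb, Chil3 and Itgam lie above 1 in all 4 mice and S100a9 ranges from 0.966 to 6.17.

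Monocyte and macrophage genes also moved with the fractions. Of 11 tested 5 rose and none fell (median 0.98), and with the mouse block all 11 rose. Adgre1, C1qa and C1qb entered the test only through the enriched libraries, and without these 3 genes 3 of 8 rose, or 8 of 8 with the block. With 1 library left out, 1 of the 11 rose without enriched replicate 4, 2 without enriched replicate 2 and 3 without flow-through replicate 1 or 3 or enriched replicate 3. Lyz2, the lysozyme of myeloid cells, rose from 197 ± 108 to 506 ± 222 FPKM (change 1.41 ± 0.41, limma adjusted p = 0.0342), but under T-cell scaling (1.02), or without any 1 of flow-through replicates 1, 3 and 4 and enriched replicates 2 and 4 (1.13 to 1.46), it was not called. Tyrobp, an adaptor of myeloid and NK-cell receptors, was at 104 ± 49.4 and 221 ± 75.3 FPKM (change 1.15, limma adjusted p = 0.0525), and Ly6c2, which effector CD8+ T cells express as well, at 563 ± 188 and 736 ± 129 FPKM (change 0.44, limma adjusted p = 0.221). With the mouse block both were called (limma adjusted p of 0.000407 and 0.0311). The sum of the list was 525, 1391, 773 and 1091 FPKM in the flow-through and 1219, 2224, 1289 and 1760 FPKM in the enriched libraries, 1.60 to 2.32 times as high within mice. The part of these cells in the S100a8 and S100a9 values was not tested, nor was their part in the T-cell members, which myeloid cells express too.

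The other 3 members had low levels. S100a1, known as a regulator of calcium handling in heart muscle, was at 9.21, 12.7, 9.53 and 10.2 FPKM in the flow-through and at 6.62, 14.9, 8.73 and 8.08 FPKM in the enriched libraries. The fractions overlapped, and it was higher in 1 of 4 mice (change −0.16 ± 0.22, 95% interval −0.65 to 0.33, limma adjusted p = 0.608). Its divergent neighbour S100a13 thus rose while S100a1 did not pass the test, and the ratio of S100a13 to S100a1 was 5.34 ± 0.711 for flow-through and 12.3 ± 4.41 for enriched libraries, in ranges of 4.56 to 6.22 and 6.93 to 17.4 that did not overlap. The ratio was not tested.

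S100a3, a zinc-binding protein of the hair cuticle, was at 0.196, 0.232, 0.369 and 0.418 FPKM in the flow-through and at 1.73, 2.13, 1.88 and 1.25 FPKM in the enriched libraries. S100a3 changed by 1.07 ± 0.15, in the direction that its entry into the test required. Its gene model is long, ends just upstream of S100a4 and overlaps, as S100a4 does, the readthrough model Gm42674 on the same strand (144 and 302 shared exon bases). The level of S100a3 was 0.0475% to 0.102% of that of S100a4 in flow-through libraries and 0.0796% to 0.124% in enriched ones, ranges that overlap. The division of fragments between these overlapping models is uncertain. S100a5, a protein of olfactory neurons, was listed at 0.232 and 0.240 FPKM in flow-through replicates 1 and 3 and at 0 in the other 6 libraries. Since 1 fragment on a transcript of 600 bases is worth an estimated 0.0949 to 0.115 FPKM, S100a5 was at the limit of detection. Beyond the members, 7 other S100 genes were in the table, S100a2, S100a7a, S100a14, S100a16, S100b, S100g and S100z, and their highest value in any library was 0.486 FPKM.

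**Figure D4:**
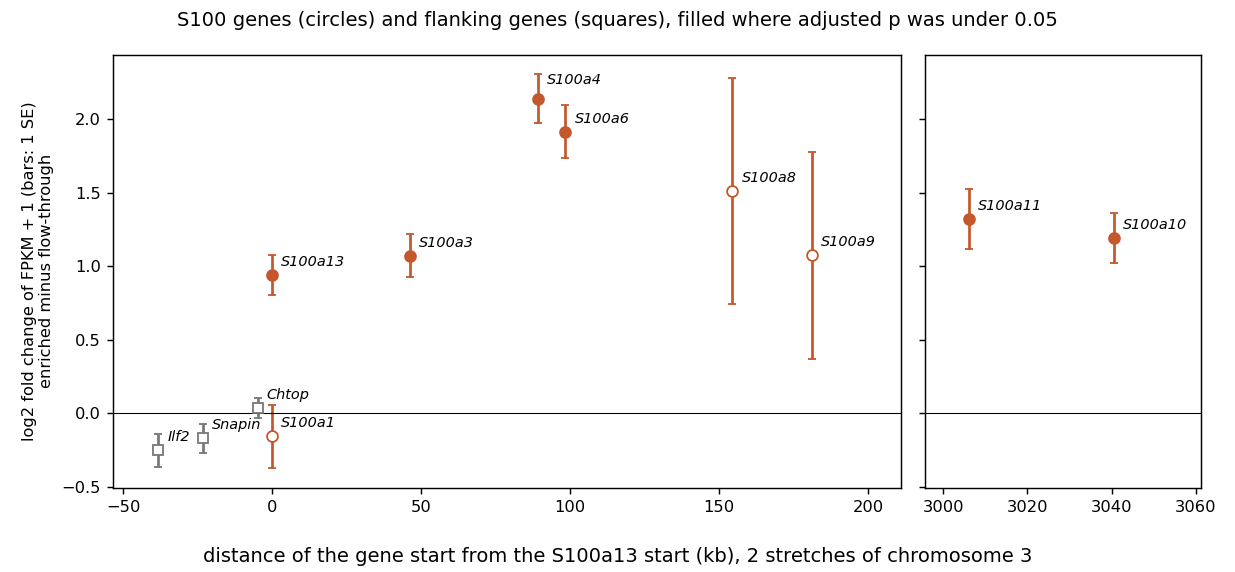
Log2 fold change of FPKM + 1, enriched minus flow-through (vertical axis, bars 1 SE), against the distance of each gene's start from that of S100a13 in kb along 2 stretches of chromosome 3 (horizontal axis); circles are S100 genes and squares flanking genes, filled where the limma adjusted p was under 0.05. S100a4 and S100a6, with S100a5 (not tested) between them, have the largest changes, and S100a13 and S100a1 differ although their starts are 43 bases apart.

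No change was called in the 3 expressed genes before the cluster. Chtop, Snapin and Ilf2, chosen by position after values had been seen, had changes of 0.03, −0.17 and −0.25 (limma adjusted p of 0.725, 0.218 and 0.122). With the mouse block Ilf2 was called lower (limma adjusted p = 0.029), and under T-cell scaling Chtop had the opposite sign (−0.35, not called).

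The genes whose profile over the 8 libraries was most like that of a member were found by the mean absolute difference of centred log2(FPKM + 1) among 8579 genes. For S100a4 they were Cd40lg (0.0815), which encodes the CD40 ligand, the chemokine receptor gene Ccr10 (0.101) and S100a6 (0.111). S100a6 was most like the galectin gene Lgals3 (0.0775), the chemokine gene Ccl1 (0.0900) and Il18r1 (0.0983), the gene of the receptor used for the sort. S100a13 was most like Glipr2, Dpysl2 and Panx1 (0.0498, 0.0503 and 0.0546). S100a8 had no close match in that sense, with Fcnb (0.302), Chil3 (0.370) and S100a9 (0.394) nearest. Seen from S100a4, S100a11 ranked 111th, S100a10 164th and S100a13 300th of these genes, and S100a9, S100a8 and S100a1 ranked 1435th, 1515th and 5648th.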

How the data were processed

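RNA-seq was done on an IL-18Rα hi-enriched and a flow-through fraction of CD8+ cells from each of 4 mice (8 libraries). The authors prepared stranded poly(A) libraries, sequenced paired ends, mapped reads to mm10 with TopHat and deposited FPKM per gene from Cufflinks 2.1.1 (per the submitters' processing notes). The annotation release is not given in the sources used here. Whether counting used strand is not stated either, so values of overlapping genes and close paralogs are uncertain. FPKM hold no counts. Low values gave an estimated 14500000 to 17600000 fragments per library, and no counting interval was applied.

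Groups and replicate numbers came from the sample labels, and fractions of the same number were taken as the same mouse. Genes averaging 1 FPKM or more over the 8 libraries were tested with limma 3.58.1 (R 4.3.3) on log2(FPKM + 1) with a variance trend and no mouse block, and p was adjusted by Benjamini-Hochberg over all 12166 genes (threshold 0.05). The script was tested on simulated data. Fractions were paired by replicate number, and their deviations from the group means correlated at 0.308 to 0.66 and best with their own number in all 4 mice. The fit with a mouse block is given where it changed the call of a gene whose p is printed or the count of a list. Genes given by their within-mouse ratios alone, Fcnb, Chil3 and Wfdc21 among them, could also change call with the block. Pairs of members were compared by exact permutation tests (numpy 2.4.6). Alternatives were a pseudocount of 0.1, no filter or a minimum of 5 FPKM, scaling to median genes or to 8 T-cell genes, no trend, the mouse block and each library left out.

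The genes named were the 10 members, known binding partners and receptors, the rest of the family, the 3 most abundant genes of the neutrophil and monocyte lists, Il18r1, Cd8a and the 3 genes most like S100a4, S100a6, S100a8 and S100a13. Genes named outside this rule were the flanking genes Chtop, Snapin and Ilf2, list genes of neutrophils and macrophages (Ly6g, Cxcr2, Ctsg, Fcnb, Chil3, Itgam, Mmp8, Mmp9, Wfdc21, Padi4, Camp, Lcn2, Ltf, Ngp, Retnlg, Adgre1, C1qa and C1qb) and Ighm, chosen after their values were seen. Members and lists were chosen with earlier results of these data known. A further gene under this rule is not reported here. Duplicate gene names were resolved by identifier. Promoter windows came from RefSeq.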

Additional observations from a re-analysis of the deposited data

Results flagged for a closer look

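The ratio of S100a8 to S100a9 in the flow-through fraction had 1 library far from the others. It was 2.31 in flow-through replicate 2, against 0.848, 1.00 and 1.08 in replicates 1, 3 and 4, a gap beyond Dixon's 95% critical value for groups of 4. Among the 48 groups of 4 examined this was the only such value, where chance gives about 2.4. In the enriched libraries the ratio was 1.50 to 1.88.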

How the results depend on the processing

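The calls of S100a4, S100a6, S100a10 and S100a11 held under every alternative run, with changes of 1.75 to 2.26, 1.53 to 2.08, 0.80 to 1.36 and 0.93 to 1.47. S100a13 (0.56 to 1.03) lost its call only with T-cell scaling and the mouse block together (0.56). S100a3 was called wherever it was tested, with changes of 0.91 to 2.21, the largest with a pseudocount of 0.1. It was below the filter and not tested without any 1 of the enriched libraries, without mouse 2 or 3, and at a minimum of 5 FPKM. S100a8 without the block was never called (0.89 to 1.99 with 1 library left out). With the replicate block it was called at 1.51, at 1.13 with T-cell scaling added and at 1.37, 1.32, 1.84 and 1.52 without mouse 1, 2, 3 or 4, and S100a9 at 1.45 without mouse 3. The block changed no other member's call. The replicate block gave 2705 genes higher and 2763 lower, and T-cell scaling 521 higher and 1454 lower. With 1 library left out, 1107 to 1813 genes were higher and 939 to 1780 lower. Of the pairs of T-cell members 0 passed with the mice as pairs, since that test cannot go below 0.125, and 6 to 9 of 10 with 1 library left out. The pairs that lost their call there were S100a4 against S100a6 in 5 of 8 runs, and S100a10 and S100a11 against S100a13 in 4 runs each.

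Counts in the gene lists moved more. Partners higher were 3 and lower 0 under T-cell scaling, lower 0 with no filter and 0 to 1 with 1 library left out. Receptors were 5 higher and 2 lower with the replicate block, and 0 higher and 1 lower under T-cell scaling, with 0 to 1 lower when 1 library was left out. Neutrophil genes higher were 8 (1 lower) with the block, 1 with no filter, 1 under T-cell scaling and 1 to 4 with 1 library left out. Monocyte genes higher were 11 with the block, 3 at a minimum of 5 FPKM, 3 under T-cell scaling and 1 to 7 with 1 library left out. Naive T-cell genes lower were 4 with no filter and 4 to 10 with 1 library left out, and NK-cell genes higher were 4 at a minimum of 5 FPKM. Among the named genes, signs changed for some that were not called without the block: Chtop (−0.35) and Elane (−0.14) under T-cell scaling, Prtn3 with median scaling (0.015) and, with 1 library left out, Elane (−0.21 to 0.72), Mpo (−0.72 to 0.18), Prtn3 (−0.47 to 0.47) and Ager (−0.16 to 0.056). The cause of these differences was not tested, apart from the genes that a stricter minimum removes. Depth limits S100a5 and the rest of the family, which lie at or near the worth of a few fragments.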
